A study of Mus musculus with 2 samples.

Results

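Expression of the FGF receptors and of the genes that restrain signalling downstream of them was examined in endothelial cells of the embryonic mouse kidney. The set holds 10 genes, the receptors Fgfr1, Fgfr2, Fgfr3 and Fgfr4, the Sprouty genes Spry1, Spry2 and Spry4, the Spred genes Spred1 and Spred2, and the phosphatase gene Dusp6. All 34 probe sets that the platform annotation gives to exactly 1 of these genes were taken, of 45101 on the array. The 2 samples form 1 group. Each was a pool of approximately 5 to 10 kidneys of E15.5 CD-1 embryos (Theiler stage 23, sex not recorded) carrying the transgene Tg(TIE2GFP)287Sato, in which the Tie2 promoter drives GFP. The kidneys were dissociated with trypsin, GFP-positive cells were sorted, and the RNA was amplified in 2 rounds and hybridised to 1 array per pool. Neither different litters nor different sort days are stated for the pools, so the spread between them may be partly technical. The sample titles name Flk1 (Kdr) and the source label gives the lining of the renal artery and vein, whereas GFP was under Tie2 control and whole kidneys were dissociated. Tie2 is also made by some blood cells, so the sort does not select endothelium alone.

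Fibroblast growth factors (FGFs) are secreted ligands that bind receptor tyrosine kinases together with heparan sulfate. The active receptor signals through docking proteins, Ras and Raf to the kinase ERK, which drives growth, migration and branching. ERK signalling in turn switches on its own inhibitors. Sprouty and Spred proteins act on the steps between the receptor and Raf, and Dusp6 removes phosphate from ERK in the cytoplasm. In the kidney, FGF receptors are known for their part in the ureteric bud and the mesenchyme around it, and Spry1 for restraining Ret signalling in the bud. In vessels, Sprouty and Spred genes are known as brakes on both FGF and VEGF signalling.

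Paired values are the deposited intensities, in arbitrary units, with replicate 1 first. A probe set was taken as above background when it exceeded, on both arrays, the 95th percentile of 83 probe sets for 75 genes of smell, pheromone and taste receptors, which was 202.5 in replicate 1 and 204.1 in replicate 2. Probe sets differ in how well they bind, so the level of one against that of another says little about amounts of RNA. Distance from the limit is given only as a description, and it also served to pick the promoters printed below. Of 15 endothelial markers, 15 were above background on both arrays, among them Tek (15908 and 21499), which encodes Tie2, and Cdh5 (22435 and 20733), the junction cadherin of endothelium. Of all genes on the array 61.0% passed in the same way, and marker lists of other cells are read against that share. Macrophage markers (10 of 10) and renal stroma markers (10 of 11) lay above it. The counts for erythroid cells (4 of 6), mural cells (4 of 7), ureteric bud (4 of 8), nephron progenitors (4 of 8) and podocytes (2 of 4) were near or below it and do not by themselves show that these cells were present. In the erythroid list the globin gene Hbb-y gave 55397 and 48789, and Hba-x, Hbb-bh1 and Alas2 also passed, whereas Hba-a1 and Klf1 did not. The early nephron and tubule list had 0 of 7. How much these cells contributed to the intensity of each gene below was not tested, and in such pools fewer cells of a type and less RNA per cell cannot be told apart.

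The first question was which members of the pathway were detected. The receptors Fgfr1, Fgfr2 and Fgfr3 were above background on both arrays with at least 1 probe set, and Fgfr4 was not. All 3 Sprouty genes, both Spred genes and Dusp6 were above it. That is 9 of 10 genes when each is represented by its brightest probe set, and 61.0% of all 18193 genes passed in the same way. Over single probe sets the share was close to that of the whole array, with 18 of 34 (52.9%) above background against 49.5% of all probe sets other than array controls. Of the remaining 16, 4 exceeded the limit in replicate 1 only, none in replicate 2 only, and 12 on neither array. In 6 of the 10 genes some probe sets passed and others did not.

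**Figure D1:**
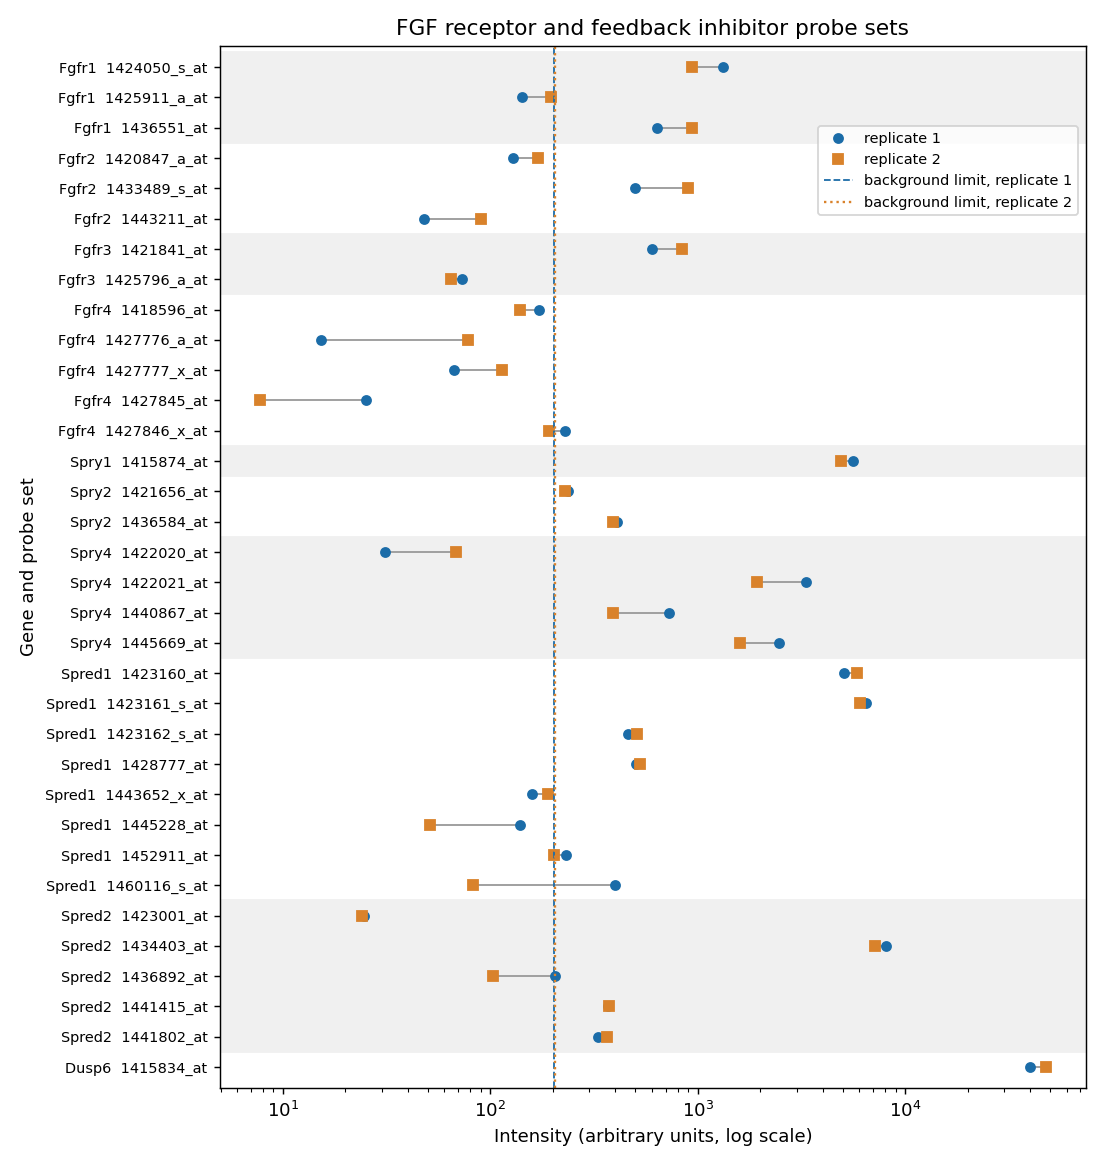
Intensity (x axis, arbitrary units, log scale) of each of the 34 probe sets (rows, grouped by gene) in replicate 1 (circles) and replicate 2 (squares), with the background limits as vertical lines at 202.5 and 204.1. Of the 34, 18 lie right of both lines. The single Dusp6 probe set lies at 39892 and 47867, and all 5 Fgfr4 probe sets lie near or left of the lines.

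Among the receptors, Fgfr1 has 3 probe sets. Fgfr1 is a receptor of wide expression, known in mesenchyme and in endothelium. Probe set 1424050_s_at gave 1329 and 935.2, and probe set 1436551_at gave 633.9 and 940.7. Both were above background, and they went opposite ways between the arrays, the former 1.43-fold higher in replicate 1 and the latter 1.47-fold higher in replicate 2 after centring. The direction of Fgfr1 between the pools is therefore not settled by these data. Probe set 1425911_a_at was under the limit on both arrays (141.9 and 196.7).

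Fgfr2, the receptor known from ureteric bud epithelium and kidney mesenchyme, passed with 1 of its 3 probe sets. Probe set 1433489_s_at gave 500.2 and 897.5. The higher value was in replicate 2, by 1.78-fold. The remaining probe sets gave 128.9 and 169.6, and 47.9 and 89.8, all under the limit. The suffix s marks a design whose probes may bind transcripts of more than 1 gene, and no probe set of Fgfr2 without such a suffix was above background. The brightest probe sets of Fgfr1 (1424050_s_at) and Spred1 (1423161_s_at) carry the same suffix. For both of these genes, the brightest probe set without a suffix letter was above background and higher in replicate 2.

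Fgfr3, a receptor best known for restraining bone growth, passed with 1 of its 2 probe sets. Probe set 1421841_at gave 598.4 and 838.3, which was 1.39-fold higher in replicate 2. The other, 1425796_a_at, was well under the limit at 73.3 and 64.8. Fgfr4 is known from liver, where it takes part in bile acid control. None of its 5 probe sets was above background on both arrays. The one nearest the limit, 1427846_x_at, gave 227.9 and 192.8, and so exceeded it in replicate 1 only. The other 4 ranged from 15.3 to 171.5 in replicate 1 and from 7.71 to 139.4 in replicate 2.

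Spry1, the Sprouty gene that limits budding of the ureter, has 1 probe set. It gave 5611 and 4891, which was 27.7 and 24.0 times the limit. The arrays differed by 1.16-fold. Both probe sets of Spry2, an inhibitor that binds the ubiquitin ligase Cbl, were above background. They gave 236.4 and 229.5, and 408.4 and 389.0, so the former lay close above the limit and the latter at about 2 times it. Neither differed between the arrays by over 1.06-fold.

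Spry4, known as an inhibitor of ERK activation by VEGF and FGF in endothelium, has 4 probe sets, of which 3 were above background. Probe set 1422021_at gave 3313 and 1925, probe set 1445669_at gave 2459 and 1598, and probe set 1440867_at gave 725.5 and 388.9. All 3 were higher in replicate 1, by 1.74-fold, 1.55-fold and 1.88-fold. By its brightest probe set it differed by less than Fgfr2 did (1.74-fold against 1.78-fold). The Spry4 probe sets measure the same RNA in the same pools and are not replicates of one another. The remaining probe set, 1422020_at, was under the limit on both arrays (31.2 and 68.3).

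Spred1 encodes an inhibitor that brings the Ras regulator neurofibromin to the membrane. It has 8 probe sets, of which 4 were above background on both arrays, 2 in replicate 1 only and 2 on neither. Probe sets 1423160_at (5077 and 5832) and 1423161_s_at (6470 and 6060) lay at least 25.1 times over the limit on each array. The other 2 that passed gave 460.7 and 507.0, and 505.6 and 527.9. The 4 that passed differed by 1.04-fold to 1.14-fold between the arrays, 1 higher in replicate 1 and 3 in replicate 2. Of those that did not, 1460116_s_at was the least even, at 396.9 and 82.3.

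Spred2, the related inhibitor, passed with 3 of its 5 probe sets. Probe set 1434403_at gave 8042 and 7121, or 39.7 and 34.9 times the limit, and was 1.14-fold higher in replicate 1. The remaining probe sets that passed gave 370.1 and 374.2, and 331.0 and 364.2. Probe set 1436892_at exceeded the limit in replicate 1 only (205.1 and 103.5), and 1423001_at was far under it on both arrays (24.5 and 24.2).

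Dusp6 was the member furthest over the limit. This phosphatase acts on ERK and is itself induced by ERK signalling. Its single probe set, 1415834_at, gave 39892 and 47867, which was 197.0 and 234.5 times the limit. The arrays differed by 1.19-fold, with replicate 2 the higher. The part of cell dissociation and sorting in this level was not tested.

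**Figure D2:**
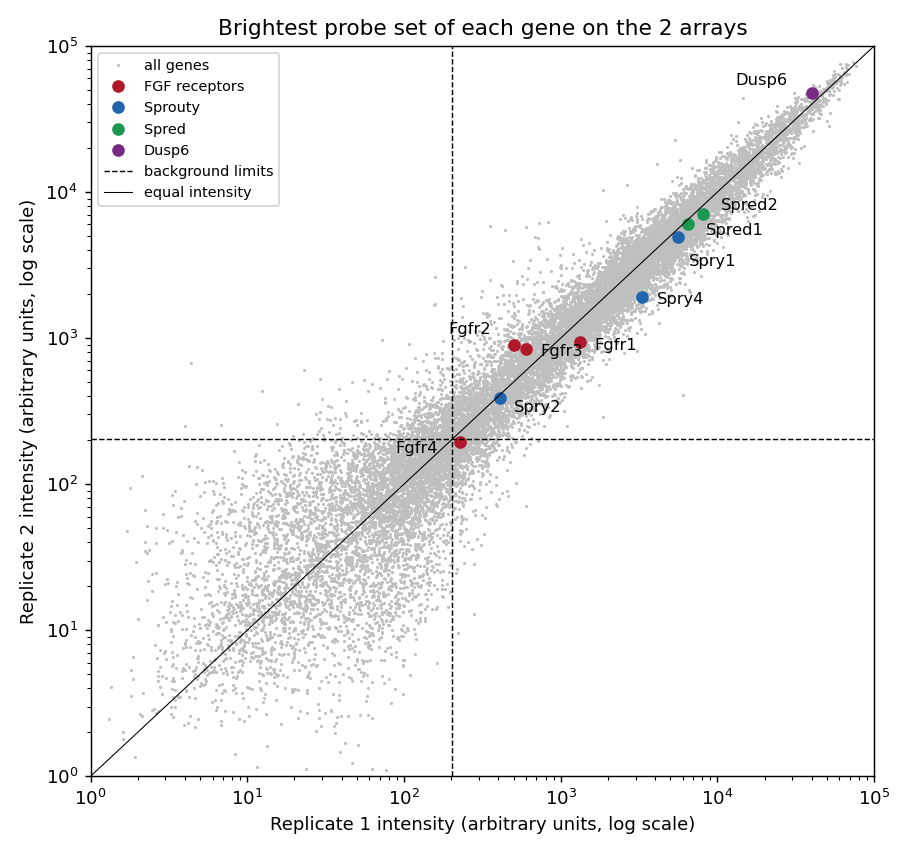
Brightest probe set of all 18193 genes (grey) and of the 10 genes described (coloured by kind), as intensity in arbitrary units on log axes, with replicate 1 along x and replicate 2 along y. Dashed lines are the limits of background and the solid diagonal marks equal values. Dusp6, Spred1, Spred2 and Spry1 lie close to the line and far from the limits, whereas Fgfr4 lies where the limits cross.

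ETS factors are a family known both in endothelial gene control and for carrying ERK signals to DNA. Promoter sequences of the members were therefore read for the core letters of ETS sites, from RefSeq (GRCm38.p6). The table used holds a promoter for 8 of the 10 genes, and Fgfr1 and Spry4 are missing from it. The 250 bases before the start of the transcript are printed for the 4 of these genes that were over 10 times the limit on both arrays, each written 5′ to 3′ along the gene. Capitals mark GGAA, the core of ETS sites, and TTCC, the same letters on the other strand. The regions are chr2:117120821-117121070 (plus strand) for Spred1, chr3:37639697-37639946 (plus strand) for Spry1, chr10:99262981-99263230 (plus strand) for Dusp6 and chr11:19924192-19924441 (plus strand) for Spred2.
Dusp6: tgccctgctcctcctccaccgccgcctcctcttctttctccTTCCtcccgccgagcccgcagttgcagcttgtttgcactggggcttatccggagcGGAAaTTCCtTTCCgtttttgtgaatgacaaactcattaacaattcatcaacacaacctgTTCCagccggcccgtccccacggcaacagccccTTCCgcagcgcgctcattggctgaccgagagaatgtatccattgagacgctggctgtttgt
Spry1: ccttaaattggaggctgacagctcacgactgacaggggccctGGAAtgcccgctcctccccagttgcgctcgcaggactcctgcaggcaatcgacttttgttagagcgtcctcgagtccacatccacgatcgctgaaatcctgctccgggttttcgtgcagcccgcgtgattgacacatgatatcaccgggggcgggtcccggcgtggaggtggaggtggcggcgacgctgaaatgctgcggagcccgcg
Spred1: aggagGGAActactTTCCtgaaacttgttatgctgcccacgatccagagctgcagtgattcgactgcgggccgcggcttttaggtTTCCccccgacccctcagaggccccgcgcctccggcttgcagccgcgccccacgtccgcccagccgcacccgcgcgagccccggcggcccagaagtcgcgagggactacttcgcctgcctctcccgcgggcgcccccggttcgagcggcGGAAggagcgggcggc
Spred2: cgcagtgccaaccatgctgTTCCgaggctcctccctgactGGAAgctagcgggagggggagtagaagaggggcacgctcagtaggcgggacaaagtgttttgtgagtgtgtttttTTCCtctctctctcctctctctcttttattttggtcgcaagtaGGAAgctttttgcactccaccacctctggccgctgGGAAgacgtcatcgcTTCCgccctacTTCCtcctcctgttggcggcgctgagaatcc

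The Spred2 stretch holds GGAA or TTCC 7 times, and 3.82% of the 32851 promoters in the table hold it at least as often. The Dusp6 stretch holds it 6 times, and 8.69% of promoters hold it at least as often. The Spred1 stretch holds it 4 times (33.4% of promoters at least as often) and that of Spry1 once (93.4%). Of the member promoters not printed, Fgfr2 and Fgfr4 hold it 2 times each (76.8%), Spry2 3 times (54.7%), and the Fgfr3 promoters 1 time (93.4%) and 5 times (18.03%). At least 1 is found in 93.4% of promoters, so its presence alone says little. The longer form TTCCTG was found on either strand in 25.7% of all promoters and in 3 of the 9 member promoters (Fgfr3 has 2), those of Spred1, Fgfr2 and Spry2. It overlaps the shorter motif. A match of letters is not evidence of binding, and none of these counts was tested against the intensities.

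The next question was which other parts of FGF signalling were detected in the same pools. The secreted ligands stood out as the list with the lowest share of genes above background. Of 18 ligands 1 was above it on both arrays, Fgf1 (453.7 and 440.2), a ligand that binds all FGF receptors. The share was 5.56% where 61.0% of all genes passed. Fgf2, a well-known growth factor for endothelium, gave 7.48 and 79.6 and was under the limit. Fgf4 (213.9 and 126.8) was above it in replicate 1 only and Fgf7 (59.0 and 436.6), a mesenchymal ligand for epithelium, in replicate 2 only. Fgf4 and Fgf7 were named after their values were seen. The other 14 ligands were under the limit on both arrays.

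Of 6 coreceptors and receptor partners 3 were above background, where 61.0% of all genes were. Kl (52.1 and 55.5) and Klb (80.8 and 73.1), the klotho coreceptors for hormone-like FGFs, were not. Fgfrl1, a receptor without a kinase domain, gave 1773 and 2374, and Flrt2, a membrane protein with a leucine-rich ectodomain, gave 19349 and 18768. Flrt3, its relative that was named after the values were seen, gave 2778 and 3316. Of 3 further feedback inhibitors 2 passed, Spred3 (397.8 and 241.0) and Il17rd (767.0 and 1527), which encodes the FGF antagonist Sef and was also named after its values were seen. Spry3 was far under the limit (23.0 and 27.4). Both counts in this paragraph lie near the share of all genes, so they mark neither list as unusual.

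The intracellular steps were detected throughout. All 14 measured docking proteins and members of the ERK cascade were above background, among them the docking protein Frs3 (383.1 and 218.8) and the adaptor Grb2 (2576 and 3643). The 6 other genes of this list were not analysed here. All 5 binding partners of Sprouty and Spred proteins passed, with Cbl at 10574 and 8445 and neurofibromin, encoded by Nf1, at 254.4 and 470.2. All 9 other phosphatases of MAP kinases passed as well, with the rapidly induced Dusp1 at 20891 and 17989 and Dusp2 at 1384 and 773.0. Of 13 measured ERK-induced genes 12 did. The ETS factor genes Etv4 (543.9 and 236.5) and Etv5 (1739 and 2672), which are induced by FGF signalling in many tissues, were both above background, and Fosl1 (13.1 and 36.8) was not. Several genes of this list, such as Fos and Egr1, are also induced by tissue dissociation. The part of handling in these values, or in those of the phosphatases and the member genes, was not tested.

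**Figure D3:**
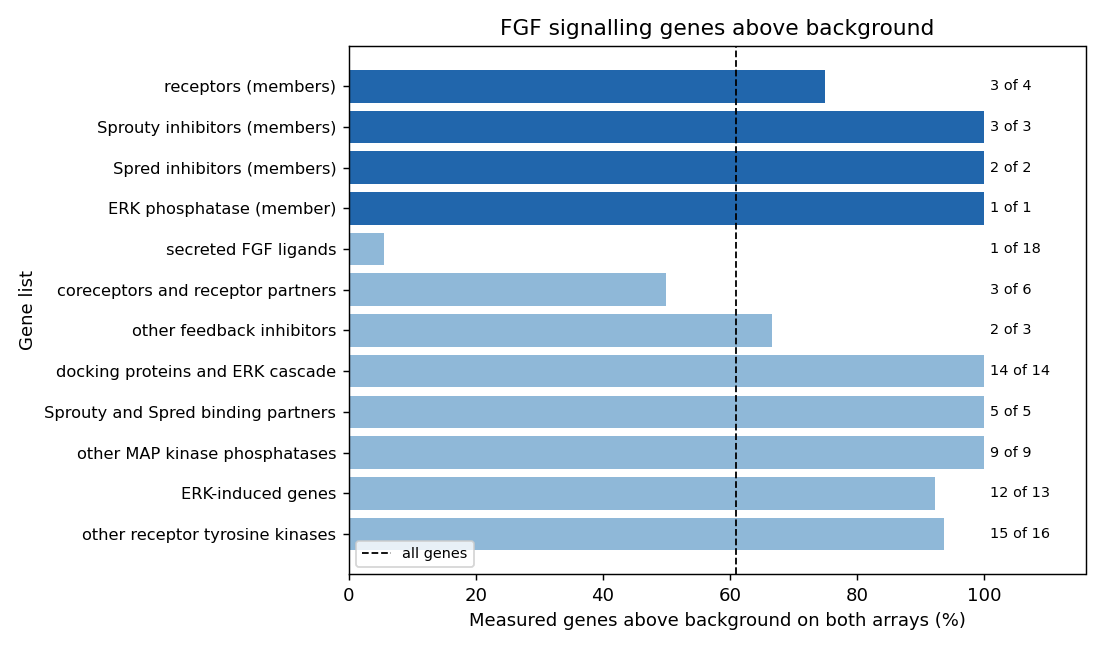
Share (x axis, percent) of the genes measured that passed the limit on both arrays, for each list of FGF signalling genes (rows), with dark bars for the 10 genes described, light bars for the other lists, the counts at the right and the share over all genes (61.0%) as a dashed line. The ligand bar, 1 of 18, is the shortest, and the cascade and phosphatase lists reach 14 of 14 and 9 of 9.

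The last question was how far the 2 pools differed in these genes. The difference is given as log2 of replicate 1 minus replicate 2, less the median of this difference over all probe sets above background. With 1 group and 2 arrays there is no test. The spread of this difference over all probe sets above background, taken in 5 equal groups by mean intensity, had an SD of 0.39 in the brightest group and 0.48 to 0.58 in the others. None of the 18 member probe sets above background differed by over 2-fold (0 of 18), and 4.97% of all such probe sets did. The largest difference was 1.66 SD of its own group, so no member stood beyond 2 SD. In all, 4 of the 18 exceeded 1 SD, the 3 of Spry4 and the 1 of Fgfr2. The share of all probe sets beyond 1 SD or 2 SD was not counted, so these counts mark no gene as unusual. Member genes above background had a median difference of 0.11 and ranged from -0.83 to 0.80, and the median of all genes was 0.02. By their brightest probe sets 6 of 9 were higher in replicate 1, against 52.0% of all genes. Over single probe sets the split was even, with 9 of the 18 member probe sets above background higher in replicate 1.

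By their brightest probe sets, the members above background lay on both sides, each within 2 SD of its group. Spry4 (0.80), Fgfr1 (0.52), Spry1 (0.21), Spred2 (0.19), Spred1 (0.11) and Spry2 (0.08) were on the side of replicate 1. Fgfr2 (-0.83), Fgfr3 (-0.47) and Dusp6 (-0.25) were on the side of replicate 2. The side of Fgfr1, Spred1 and Spred2 depended on the probe sets used. Renal stroma markers were much higher in replicate 2. All 10 above background lay on that side, with a median of -1.89, and the summed intensity of the 11 was 27610 in replicate 1 and 91596 in replicate 2. Mural markers had a median of -0.63 (4 of 4 on that side), nephron progenitor markers -0.35 (3 of 4) and ureteric bud markers -0.32 (3 of 4), and their summed intensities were 6640 and 11360, 2228 and 3005, and 2359 and 2761. The stromal markers Pdgfra (719.8 and 4811) and Foxd1 (775.4 and 1775) were above background in both pools. Endothelial markers had a median of 0.18, with 11 of 15 on the side of replicate 1 and summed intensities of 173723 and 155431, and macrophage markers had -0.26, with 9 of 10 on the side of replicate 2 and sums of 85528 and 107855. Erythroid markers had 0.60, with 3 of 4 on the side of replicate 1 and sums of 58015 and 50511. The part of these cell types in the differences of Fgfr2, Fgfr3 and Spry4 was not tested.

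Over all probe sets above background, 4.97% differed by over 2-fold. In the other lists of FGF signalling, 2 genes above background did. Of 12 ERK-induced genes 1 did, Etv4 (543.9 and 236.5), which was 2.32-fold higher in replicate 1 and close to the limit in replicate 2. Of 5 binding partners of Sprouty and Spred 1 did, the kinase Tesk1 (778.9 and 346.9), 2.27-fold higher in replicate 1. The remaining lists of FGF signalling had none. Il17rd, one of the further feedback inhibitors, was 1.97-fold higher in replicate 2. Etv5, an ERK-induced gene, was 1.52-fold higher in replicate 2. Of the 12 ERK-induced genes 5 were on the side of replicate 1, with a median of -0.07, and 52.0% of all genes above background were on that side.

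**Figure D4:**
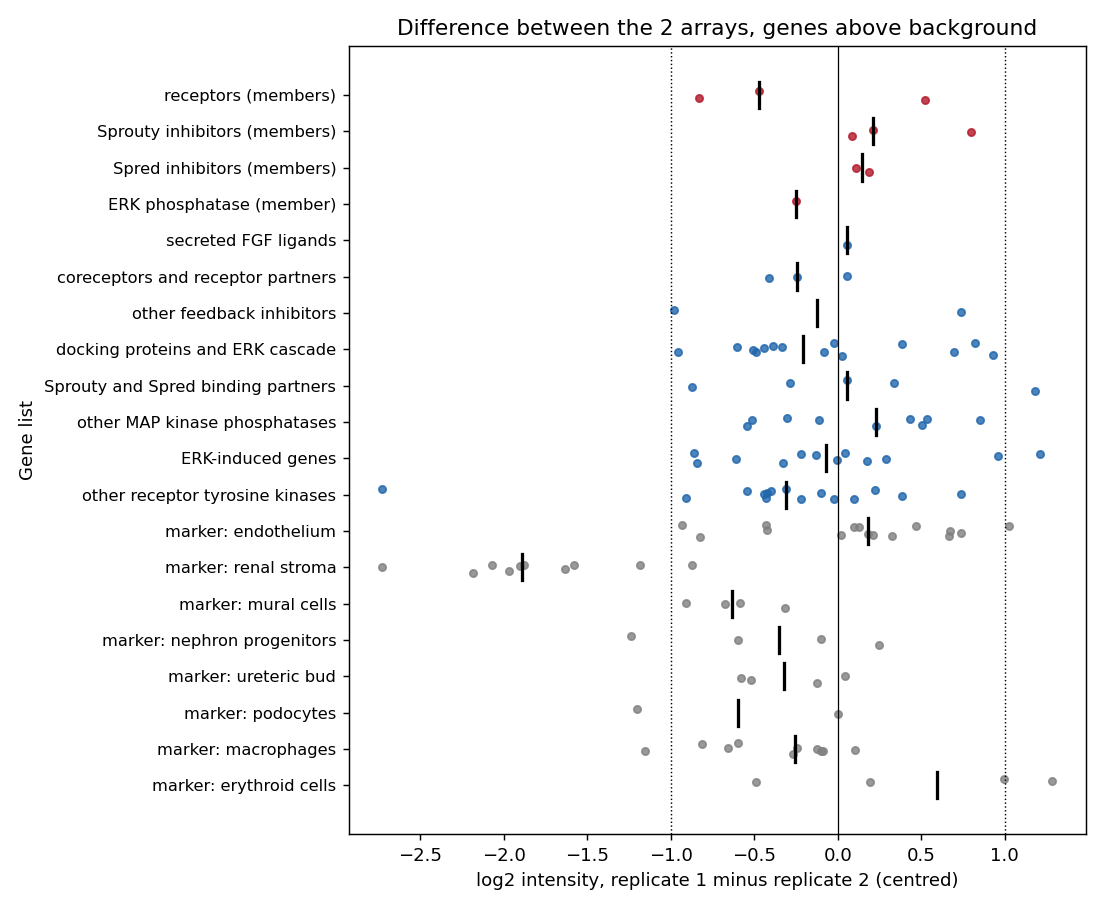
Log2 difference in intensity, replicate 1 minus replicate 2 after centring (x axis), of each gene above background on both arrays (dots) by gene list (rows), with the median of each list as a black mark and dotted lines at 2-fold. The genes described (red) stay inside the dotted lines, between -0.83 and 0.80, whereas the renal stroma markers (grey) have a median of -1.89.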

How the data were processed

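Pooled Tie2-GFP cells (2 samples, E15.5 kidney) were profiled on 1 Affymetrix 3' expression array each after 2 rounds of amplification, per the labels. The values the authors deposited are linear intensities, 1 per probe set. GCOS, the manufacturer's software, is named in the processing notes of the submitters without a version. Both arrays had the same mean (1500.01) once the lowest and highest 2% were removed, as after scaling to a common target. The study's methods describe another array type and were not applied here.

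Of 45101 probe sets, 34945 were annotated to 1 gene, 932 to several and 9160 to none, and 64 array controls were left out. Symbols came from the RefSeq gene table (GRCm38.p6) for 34741. The brightest probe set by mean log2 intensity stood for a gene, and for members all are described. Differences were centred by an offset of -0.01. Python 3.11.15, numpy 2.4.6 and pandas 2.3.3 were used, and the steps were checked on simulated arrays.

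No test was possible with 1 group of 2 arrays, and their number limits the precision. Members and lists were chosen with earlier results of these data known. From each other list the first 2 measured genes are named, then up to 2 that fall opposite to the majority at the limit. Markers, genes over 2-fold apart and names marked as picked from their values are additional. Alternatives changed the limit, the arrays, the probe set used, the centring, the normalization and the pseudocount.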

Additional observations from a re-analysis of the deposited data

How the results depend on the processing

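The count of member genes above background stayed between 8 and 10 when the limit, the arrays or the probe set were changed, against 9 in the report. This count was not taken under the changes of centring, normalization and pseudocount. It was 10 with a fixed limit of 100 and in replicate 1 alone, where Fgfr4 passed, 9 in replicate 2 alone and with a limit at the 99th percentile, and 8 with 2 times the limit, where Spry2 did not pass. It was also 8 when the median over probe sets stood for a gene, or when only probe sets without a suffix letter were used, where Fgfr2 did not pass. Member probe sets above background numbered 18 in the report, 25 with a limit of 100, 17 with the 99th percentile, 13 with 2 times the limit, 14 of those without a suffix letter, 18 in replicate 2 alone and 22 in replicate 1 alone. The ligand count rose from 1 to 5 of 18 with a limit of 100 and was 2 on either array alone. At 2 times the limit, the binding partners of Sprouty and Spred above background numbered 3 of 5 in place of 5, and the further feedback inhibitors 1 of 3 in place of 2. The median difference over member genes lay between -0.05 and 0.15. The sign of the difference changed for Fgfr1, to -0.55 with the median of probe sets and -0.56 without suffix letters, for Spred2 to -0.13 with the median of probe sets, and for Spred1 to -0.19 without suffix letters. Intensity close to the limit restricts what can be said of Fgfr4, Spry2 and the weaker probe sets of each gene. No paired analysis was possible because there is 1 group.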

Other observations

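Receptor tyrosine kinases outside the FGF family, many of which also signal through ERK, were also counted. The list shares Tek, Kdr, Flt1, Tie1, Pdgfra, Pdgfrb, Csf1r and Ret with the marker lists above, and the sort itself used the promoter of Tek (Tie2). Its counts are therefore not independent of the markers or of the sort. Of the 16 genes 15 were above background on both arrays (93.8%), where 61.0% of all genes were, and the difference was not tested. The VEGF receptors Kdr (8939 and 12139) and Flt1 (6321 and 3821) were among them, and Ret (203.2 and 163.0), the receptor of the ureteric bud, exceeded the limit in replicate 1 only. Of the 15, 4 were higher in replicate 1 and 11 in replicate 2, with a median difference of -0.31, and Pdgfra alone differed by over 2-fold. No value here shows which receptor, if any, accounts for the levels of Dusp6, Spry1, Spred1 and Spred2.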
